A study of Mus musculus with 9 samples.

Results

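Semaphorins, plexins and neuropilins form a ligand and receptor system that steers axons, vessels and migrating cells. Class 3 semaphorins are secreted and mostly act through a neuropilin that holds them and a class A plexin or Plxnd1 that signals. Semaphorins of classes 4 to 6 span the membrane and class 7 is tethered to it, and they bind plexins directly. Plexins pass the signal to small GTPases and the actin cytoskeleton. In the eye the family is known for the wiring of the retina and for the growth of its vessels.

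The 31 genes were chosen by name as the semaphorins, plexins and neuropilins listed for this family, and every probe with 1 of these names was taken. The family was selected with earlier results of these data known, among them the difference of Sema3c between the RPE and the photoreceptors, so all values below are descriptions of a family chosen on this readout. No gene was kept or dropped for its own value. All 31 genes, of 31829 gene names in the files, were found, with 41 of 39429 probes. More than 1 probe stood for 10 of them.

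The tissues were the choroid (CH), the retinal pigment epithelium (RPE) and the photoreceptors (PR), each laser dissected from whole eyes of female C57BL/6 mice, 6 months old within 2 weeks per the labels, for which the labels give no genetic change and no treatment. The methods of the study name the J strain and a slightly younger age. There were 3 arrays per tissue, 9 in all. Amplified tissue RNA was labelled with Cy5 and set against Cy3-labelled RNA from a pool of choroid and RPE, the common reference, and the dyes were never swapped. Values are the log2 ratio of Cy5 to Cy3, so that 0 is the level of the reference and a value of 1 is a doubling of it. A ratio of a gene can be compared between tissues, but not between probes. In tissue RNA of this kind, fewer cells of a type and less RNA per cell cannot be told apart.

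Per array, between 62.1% and 91.7% of probes had a Cy5 signal well above background, with RPE replicate 2 the highest and the other 8 arrays at or below 71.2%. Dissected layers touch each other, so markers of each cell type were read on every array. The mean log2 ratio of 6 RPE markers was 1.78 to 2.23 on the RPE arrays, 0.47, 0.33 and 1.05 on CH replicates 1, 2 and 3, and -2.71 to -2.61 on the PR arrays. Rpe65, Rdh5 and Ttr were saturated on all 3 RPE arrays, Ttr also on all 3 CH arrays, and Best1 was not well above background on the CH arrays. The mean of 6 rod markers was 3.34 to 3.51 in the PR, -0.75 to 0.13 in the RPE and -1.34 to -0.62 in the CH, and Sag and Gnat1 were saturated on all 3 PR arrays. The mean of 7 endothelial markers was 1.03 to 1.69 in the CH, 1.20 to 1.32 in the RPE and -1.90 to -1.76 in the PR, so that CH and RPE overlapped. The mean of 6 fibroblast markers was 1.27 to 1.69 in the CH, -1.14 to -0.79 in the RPE and -4.99 to -4.41 in the PR, with Dcn saturated on all 3 CH arrays. A saturated marker has only a lower bound there. The mean of 3 lens genes ran from -2.83 on CH replicate 3 to 3.84 on RPE replicate 3 and did not follow the tissues. Slide and scan were the same division: CH and RPE replicates 1 and 3 shared a slide, replicate 2 of all 3 tissues shared another, and PR replicates 1 and 3 lay on a slide of their own.

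A call required a fold change (FC) above 2.5, a log2 difference of 1.32, and an adjusted p-value below 0.01 over all probes, at any probe of the gene. Against the PR, 12 of the 31 genes were higher in the RPE, where 11.3% of all genes were, and 0 were higher in the PR, where 5.66% of all genes were. Against the PR, 16 of the 31 genes were higher in the CH, where 13.2% of all genes were, and 0 were higher in the PR, where 6.84% of all genes were. These comparisons share the 3 PR arrays. The shares are over all 31829 gene names, those with dim probes included, while 27 of the 31 brightest family probes were well above background on all 9 arrays. More than 1 probe, and so more than 1 way to be called, stood for 10 of the 31 genes and for 6338 of all 31829. Between RPE and CH, 1 gene, Sema3c, was higher in the RPE, where 0.217% of all genes were, and 2 were higher in the CH, where 1.81% of all genes were. Sema3c, known when the family was chosen, is also among the 12 and the 16 genes above. The median log2 difference over the 31 genes, each at its brightest probe, was 0.84 for RPE minus PR, 1.53 for CH minus PR and -0.19 for RPE minus CH, and over all 39429 probes it was -0.01, -0.05 and 0.04. The highest mean lay in the CH for 17 genes, in the RPE for 7 and in the PR for 7.

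**Figure D1:**
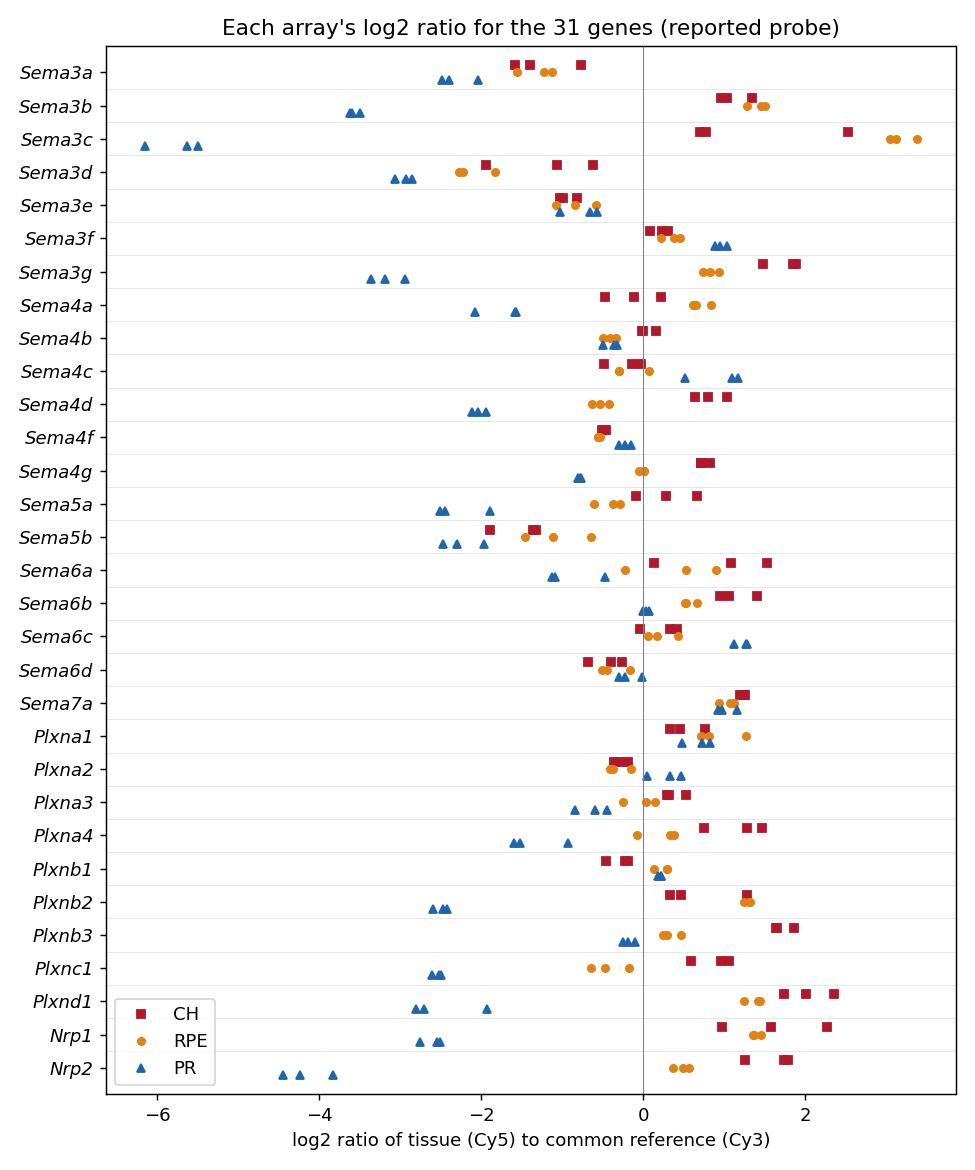
Log2 ratio of tissue to common reference on each of the 9 arrays for the 31 genes, 1 row per gene at its brightest probe, with squares for CH, circles for RPE and triangles for PR (3 arrays each). The PR arrays stand far to the left for Sema3b, Sema3c, Sema3g, Plxnb2, Plxnd1, Nrp1 and Nrp2, and to the right for Sema3f, Sema4c, Sema6c and Plxna2.

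To show what lies at the start of genes that were far above the PR in both other tissues, 3 promoters are printed. They are that of Sema3c as the gene with the largest difference, of Nrp2 as a neuropilin and of Plxnd1 as a plexin. Beside them stands that of Plxnb3, which was called for CH over both other tissues but not for RPE over PR. The means of Nrp2 and Plxnd1 were also highest in the CH. Each is 300 bases from RefSeq (GRCm38.p6), 250 before the start of the gene and 50 after it, 5′ to 3′ on the strand of the gene. Capitals mark matches to the 5 motifs searched on both strands: the GC box GGGCGG, the TATA box core TATAAA, the E-box CACGTG, which is its own reverse complement, the M-box core CATGTG and the core TAATCC of OTX and CRX sites.
Sema3c (chr5:17574566-17574865, plus strand): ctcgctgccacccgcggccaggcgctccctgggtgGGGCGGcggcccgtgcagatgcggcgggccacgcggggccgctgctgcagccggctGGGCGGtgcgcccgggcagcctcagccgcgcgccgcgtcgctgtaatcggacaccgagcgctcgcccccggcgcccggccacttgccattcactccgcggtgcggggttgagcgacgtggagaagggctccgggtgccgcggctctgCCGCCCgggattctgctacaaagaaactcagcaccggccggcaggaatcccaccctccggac
Nrp2 (chr1:62703067-62703366, plus strand): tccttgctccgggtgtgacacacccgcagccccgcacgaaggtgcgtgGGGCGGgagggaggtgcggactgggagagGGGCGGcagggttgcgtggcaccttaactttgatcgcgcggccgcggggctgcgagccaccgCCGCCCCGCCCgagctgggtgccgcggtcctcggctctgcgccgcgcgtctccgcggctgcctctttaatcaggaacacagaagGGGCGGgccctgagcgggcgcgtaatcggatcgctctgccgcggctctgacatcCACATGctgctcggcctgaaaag
Plxnd1 (chr6:115994956-115995255, minus strand): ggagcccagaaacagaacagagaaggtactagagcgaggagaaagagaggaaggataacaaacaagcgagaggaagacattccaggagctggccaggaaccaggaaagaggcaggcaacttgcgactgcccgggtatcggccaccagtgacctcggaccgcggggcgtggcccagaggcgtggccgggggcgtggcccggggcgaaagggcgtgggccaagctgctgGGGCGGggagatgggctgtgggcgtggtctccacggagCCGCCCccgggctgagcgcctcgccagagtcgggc
Plxnb3 (chrX:73756853-73757152, plus strand): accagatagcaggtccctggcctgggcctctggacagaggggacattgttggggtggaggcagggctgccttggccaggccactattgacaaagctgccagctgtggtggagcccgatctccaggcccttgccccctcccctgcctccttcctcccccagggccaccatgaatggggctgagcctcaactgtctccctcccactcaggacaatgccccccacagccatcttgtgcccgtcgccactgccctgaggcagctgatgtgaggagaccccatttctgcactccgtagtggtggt

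In these letters the capitals of Sema3c and Plxnd1 are GC boxes, Nrp2 has GC boxes and 1 M-box core, and Plxnb3 has no match. RefSeq windows were given for 26 of the 31 genes, 37 windows in all. A GC box stood in 27 of the 37 windows and in 35.7% of all 32851 promoters. A TATA box core stood in 0 of the 37 and in 13.6% of all promoters, and the OTX and CRX core in 0 of the 37 and in 7.06% of all. The E-box and the M-box core each stood in 3 of the 37, against 7.15% and 14.2% of all. The median GC content was 63.7% for the windows of the family and 52.7% for all windows. Within the family it was 61.7% for the 19 windows of genes called in a comparison and 64.5% for the 18 windows of genes called in none.

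**Figure D2:**
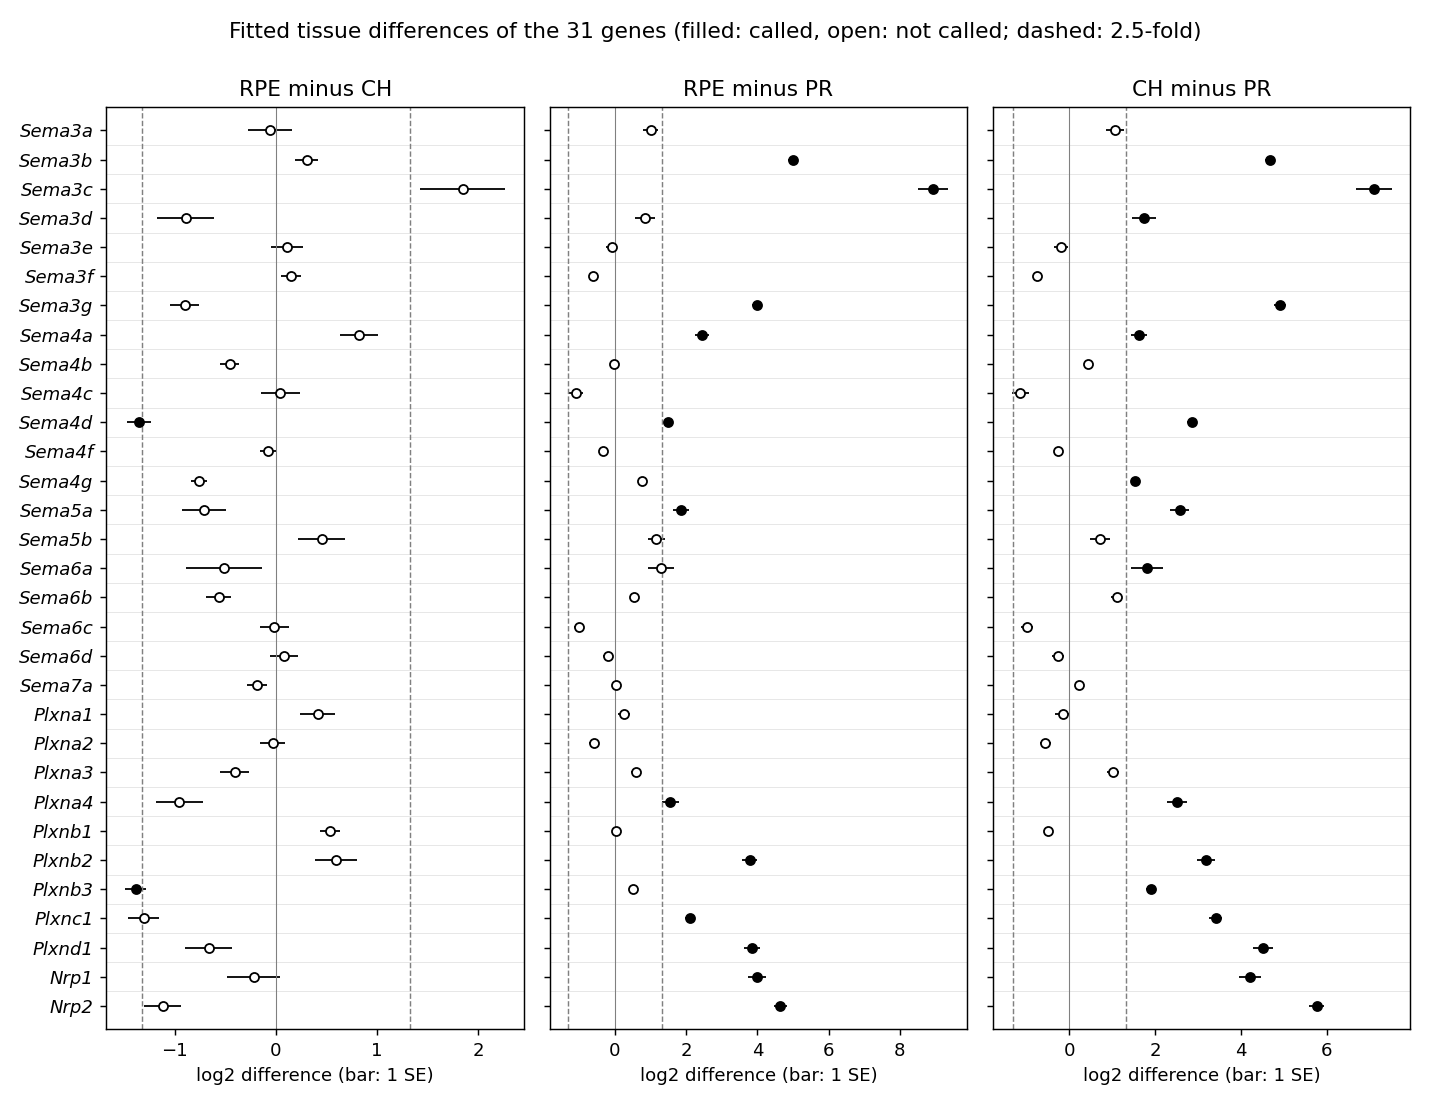
Fitted log2 differences of the 31 genes at their brightest probe for RPE minus CH, RPE minus PR and CH minus PR, with bars of 1 SE, filled points for called genes and open points for others. Dashed lines mark an FC of 2.5, and the scales of the 3 panels differ. The panel of RPE minus CH holds 2 filled points, Sema4d and Plxnb3, because Sema3c was called there at its dimmer probe.

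Of the 7 class 3 semaphorins, the secreted ligands, 3 were called for RPE over PR and 4 for CH over PR. The shares of all genes were 11.3% and 13.2%, and no class was tested as a set. Sema3c is known from the development of the heart and its vessels and signals through neuropilins and Plxnd1. It has 2 probes (NM_013657, mm9 chr5:17235981-17236040 and chr5:17234078-17234137). At the brighter probe its log2 ratios were 3.04, 3.12 and 3.38 in the RPE, 0.78, 0.70 and 2.52 in the CH and -5.49, -6.15 and -5.63 in the PR. In these ratios the tissues did not overlap, but CH replicate 3 lay nearer to the RPE arrays than to the other CH arrays. The RPE markers were also highest there among the CH arrays. In the scanned Cy5 signal alone CH replicate 3, at 402800, lay inside the RPE range of 388300 to 446200. The Cy3 signal of the reference at this probe also varied, from 15200 to 18130 on the RPE arrays and from 48670 to 62240 on the PR arrays. Part of the ratio differences below therefore lies in the reference channel. Under the alternatives run, RPE minus PR ranged from 7.30 to 9.07. The log2 difference was 8.94 ± 0.42 (SE) from PR to RPE, 7.09 ± 0.42 (SE) from PR to CH and 1.84 ± 0.42 (SE) from CH to RPE. At the dimmer probe the ratios were 1.15, 1.09 and 0.50 in the RPE, -0.48, -0.68 and -0.75 in the CH and -3.09, -3.01 and -3.46 in the PR, and here CH replicate 3 was the lowest of the CH arrays. This probe had differences of 4.10 ± 0.19 (SE) between RPE and PR, 2.55 ± 0.19 (SE) between CH and PR and 1.55 ± 0.19 (SE) between RPE and CH. The dimmer probe was therefore past both thresholds against the CH and the brighter was past the FC only. Without CH replicate 3, the difference between RPE and CH was 2.44 at the brighter probe and it passed both thresholds. That array was the CH array nearest to the RPE, so leaving it out had to raise the difference. Leaving out either of the other CH arrays lowers it. Within the slide of replicates 1 and 3 the brighter probe differed by 1.56 and the dimmer by 1.44 between RPE and CH, and within the slide of replicate 2 by 2.42 and 1.77. No p-value is given for Sema3c because its difference was known when the family was chosen. For the same reason its calls, wherever they are given, only describe where its values lay against the thresholds. The part of RPE tissue in the CH samples was not tested.

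**Figure D3:**
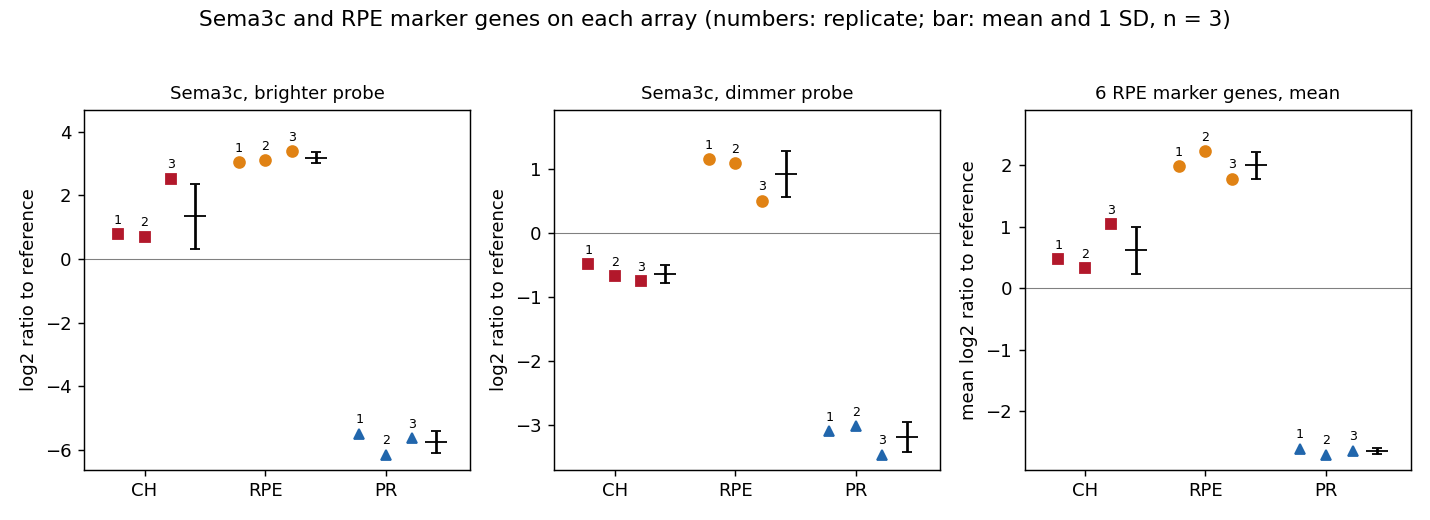
Log2 ratios of both Sema3c probes and the mean log2 ratio of 6 RPE marker genes on each array, with replicate numbers beside the points and the mean and SD (n = 3) of each tissue beside them. CH replicate 3 is at 2.52 at the brighter probe, at -0.75 at the dimmer probe and at 1.05 for the RPE markers.

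Sema3b, a ligand that acts through neuropilins (NM_001042779, mm9 chr9:107500686-107500745), had ratios of 1.51, 1.46 and 1.28 in the RPE, 1.03, 0.97 and 1.35 in the CH and -3.50, -3.60 and -3.61 in the PR. RPE and CH overlapped and both lay far above the PR. On the log2 scale RPE exceeded PR by 4.99 ± 0.12 (SE, adjusted p = 4.68e-09) and CH exceeded PR by 4.69 ± 0.12 (SE, adjusted p = 2.85e-09), while RPE and CH differed by 0.30 (adjusted p = 0.102). Sema3f, a ligand of Nrp2 whose probe lies on the same chromosome (chr9:107583833-107583892), was the reverse. Its ratios were 0.89, 0.95 and 1.04 in the PR and lay between 0.09 and 0.45 on the 6 other arrays, without overlap, and the difference of RPE minus PR was -0.61 (adjusted p = 0.000607), below the FC threshold.

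Sema3g, a class 3 ligand known from endothelium (mm9 chr14:32043435-32043494), had ratios of 1.88, 1.85 and 1.48 in the CH, 0.83, 0.94 and 0.73 in the RPE and -2.94, -3.36 and -3.19 in the PR. The 3 tissues did not overlap. Its log2 difference was 4.90 ± 0.14 (SE) for CH minus PR (adjusted p = 5.28e-09), 4.00 ± 0.14 (SE) for RPE minus PR (adjusted p = 2.21e-08) and -0.90 ± 0.14 (SE) for RPE minus CH (adjusted p = 0.00202), the last below the FC threshold. A dimmer probe (chr14:32042510-32042569) gave 1.43 for CH minus PR (adjusted p = 0.00193) and 0.64 for RPE minus PR (adjusted p = 0.0938), with CH replicate 3 at 0.52 beside 1.51 and 1.91. Without CH replicate 2, its CH minus PR difference was 1.13 and below the threshold.

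Sema3d, another secreted member, was dim. It was well above background on 2 CH arrays, 1 RPE array and 0 PR arrays. Among the RPE arrays its Cy5 signal was highest on replicate 2, where 91.7% of all probes were well above background. Its ratios were -0.62, -1.07 and -1.95 in the CH, -2.22, -1.83 and -2.27 in the RPE and -2.85, -3.07 and -2.92 in the PR. CH and RPE overlapped through CH replicate 3. The fitted difference of CH minus PR was 1.73 ± 0.28 (SE, adjusted p = 0.000458) and was called. Because Sema3d was not well above background on any PR array, its CH level is given as at least 2.41-fold higher than its PR level. This bound lies below the FC threshold and has no test of its own. It was set from the Cy5 channel against the dimmest signal well above background and is open to dye bias. Sema3d was not among the 15 genes called for CH over PR from probes well above background on all arrays of a tissue. With the arrays scaled to the same spread, the difference between CH and PR was 0.84 (adjusted p = 0.0712) and the call was lost.

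The 2 remaining class 3 ligands were not called. Sema3a, which repels axons through Nrp1, had ratios between -1.58 and -0.77 on the CH and RPE arrays and between -2.49 and -2.04 in the PR. CH minus PR was 1.06 (adjusted p = 0.00188) and RPE minus PR 1.00 (adjusted p = 0.00295), and a second probe was well above background on 1 array only. Sema3e, which binds Plxnd1 without a neuropilin, lay between -1.08 and -0.57 on all 9 arrays and its tissues overlapped in each comparison. The probes of Sema3d, Sema3a, Sema3e and Sema3c all lie on chromosome 5 of mm9 between 12586981 and 17236040.

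Of the 6 class 4 semaphorins, which span the membrane, 2 were called for RPE over PR, 3 for CH over PR and 1 for CH over RPE. The shares of all genes were 11.3%, 13.2% and 1.81%. Sema4a, a ligand whose loss in mice leads to photoreceptor degeneration (NM_013658, mm9 chr3:88239906-88239965), had ratios of 0.62, 0.84 and 0.65 in the RPE, -0.11, -0.47 and 0.22 in the CH and -1.56, -2.07 and -1.59 in the PR. The 3 tissues did not overlap, with the RPE highest. Its difference was 2.44 ± 0.19 (SE, adjusted p = 2.86e-06) for RPE minus PR and 1.62 ± 0.19 (SE, adjusted p = 4.48e-05) for CH minus PR. RPE and CH differed by 0.82 (adjusted p = 0.0123), below the FC threshold. After scaling the arrays to the same spread, CH minus PR fell to 1.17 and was below the FC threshold.

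Sema4d, also known as CD100, is a ligand of Plxnb1 and of Cd72 (NM_013660, mm9 chr13:51796617-51796676). Its ratios were 0.64, 1.03 and 0.80 in the CH, -0.63, -0.53 and -0.42 in the RPE and -2.04, -1.94 and -2.11 in the PR. The tissues did not overlap, and CH replicate 3 lay among the other CH arrays. The differences were -1.35 ± 0.12 (SE, adjusted p = 0.000138) for RPE minus CH, 2.85 ± 0.12 (SE, adjusted p = 3.06e-08) for CH minus PR and 1.50 ± 0.12 (SE, adjusted p = 2.93e-06) for RPE minus PR, and all 3 were called. The difference of RPE minus CH was close to the threshold. Without CH replicate 2 it was -1.25 and without RPE replicate 1 it was -1.30, both below an FC of 2.5. The RPE minus PR difference was also below it, at 0.89, after scaling the arrays and, at 1.29, in the Cy5 channel alone.

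Sema4g, a ligand for Plxnb2, had ratios of 0.72, 0.82 and 0.71 in the CH, 0.02, -0.05 and 0.01 in the RPE and -0.76, -0.80 and -0.78 in the PR, an even descent without overlap. The differences were 1.53 ± 0.08 (SE, adjusted p = 1.55e-07) for CH minus PR, 0.77 (adjusted p = 2.38e-05) for RPE minus PR and -0.76 (adjusted p = 0.00032) for RPE minus CH, and the first of these was called. Sema4c, which also binds Plxnb2, ran the other way, with 1.10, 0.51 and 1.18 in the PR and ratios between -0.49 and 0.07 in the other tissues. Its differences were -1.14 for CH minus PR (adjusted p = 0.000663) and -1.10 for RPE minus PR (adjusted p = 0.00097), below the FC threshold. Without PR replicate 2, CH minus PR of Sema4c was -1.35 and was called, which made it the 1 member called higher in the PR.

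Sema4b lay between -0.02 and 0.15 in the CH and between -0.49 and -0.33 on the RPE and PR arrays. Its RPE minus CH difference was -0.46 (adjusted p = 0.00749), below the FC threshold. Sema4f was between -0.56 and -0.46 in CH and RPE and between -0.29 and -0.15 in the PR, and a second probe for it was not well above background on any array.

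Among the class 5 semaphorins, which carry thrombospondin repeats and hold back the neurites of inner retinal neurons, Sema5a was called and Sema5b was not. Sema5a (NM_009154, mm9 chr15:32626025-32626084) had ratios of 0.67, 0.28 and -0.09 in the CH, -0.60, -0.38 and -0.29 in the RPE and -2.51, -1.89 and -2.45 in the PR, without overlap. CH minus PR was 2.57 ± 0.21 (SE, adjusted p = 3.92e-06) and RPE minus PR 1.86 ± 0.21 (SE, adjusted p = 4.87e-05). With the arrays scaled, the latter was 1.19 and below the FC threshold. Sema5b had probes that did not run together: RPE minus PR was 1.17 (adjusted p = 0.0018) at the brighter and 0.05 (adjusted p = 0.783) at the dimmer, and CH minus PR was 0.72 ± 0.23 (SE, adjusted p = 0.0238) at the brighter and -0.46 ± 0.12 (SE, adjusted p = 0.0107) at the dimmer.

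Of the 4 class 6 semaphorins, Sema6a, a ligand of Plxna2 and Plxna4, was called, in CH minus PR only. Its ratios were 1.08, 1.53 and 0.13 in the CH, 0.53, 0.90 and -0.23 in the RPE and -1.13, -0.48 and -1.08 in the PR. CH and RPE overlapped and replicate 2 was the highest in each tissue, which is also the slide these arrays share. CH minus PR was 1.81 ± 0.38 (SE, adjusted p = 0.00228), and it missed the adjusted p without CH replicate 1 (0.0105), PR replicate 1 (0.0108) or PR replicate 3 (0.0109). With the log ratio of the Feature Extraction software it was 1.45 (adjusted p = 0.017). RPE minus PR was 1.29 (adjusted p = 0.0161). Without RPE replicate 3 it was 1.61 and was called. Sema6b descended from 0.94 to 1.40 in the CH through 0.51 to 0.67 in the RPE to 0.07 or less in the PR, with CH minus PR at 1.10 (adjusted p = 3.1e-05). Sema6c was highest in the PR, at 1.28, 1.26 and 1.12 beside -0.03 to 0.44 on the other arrays, and CH minus PR was -0.98 (adjusted p = 0.000209), below the FC threshold. Sema6d, a ligand of Plxna1, overlapped between tissues at both of its probes. Sema7a, the membrane-tethered ligand of Plxnc1, lay between 0.92 and 1.26 on all 9 arrays with differences of at most 0.21 in size.

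Both neuropilins, the co-receptors of class 3 semaphorins and of vascular endothelial growth factors, were higher in RPE and CH than in the PR. Nrp1 (NM_008737, mm9 chr8:131026650-131026709) had ratios of 2.27, 1.58 and 0.98 in the CH, 1.45, 1.35 and 1.37 in the RPE and -2.51, -2.55 and -2.76 in the PR. The RPE arrays lay inside the range of the CH arrays and both lay far above the PR. The CH exceeded the PR by 4.21 ± 0.26 (SE, adjusted p = 4.69e-07) and the RPE exceeded it by 3.99 ± 0.26 (SE, adjusted p = 8.73e-07), while RPE minus CH was -0.22 (adjusted p = 0.613). Nrp2 (NM_001077403, mm9 chr1:62865129-62865188) had 1.74, 1.78 and 1.26 in the CH, 0.50, 0.56 and 0.36 in the RPE and -4.24, -3.83 and -4.45 in the PR, and here CH and RPE were apart. Its differences were 5.76 ± 0.18 (SE, adjusted p = 7.3e-09) for CH minus PR, 4.65 ± 0.18 (SE, adjusted p = 3.66e-08) for RPE minus PR and -1.12 ± 0.18 (SE, adjusted p = 0.00234) for RPE minus CH. A second Nrp2 probe, from another transcript (NM_001077406), gave 3.39 ± 0.16 (SE, adjusted p = 7.74e-08) for CH minus PR, 2.48 ± 0.16 (SE, adjusted p = 8.28e-07) for RPE minus PR and -0.91 ± 0.16 (SE, adjusted p = 0.00341) for RPE minus CH, each with the same sign.

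Of the 9 plexins, which are the signalling receptors, 4 were called for RPE over PR and 5 for CH over PR, beside 11.3% and 13.2% of all genes. Plxnd1, the receptor of Sema3e known from endothelium (NM_026376, mm9 chr6:115904829-115904888), had ratios of 2.36, 2.01 and 1.74 in the CH, 1.24, 1.45 and 1.42 in the RPE and -2.71, -1.93 and -2.80 in the PR, without overlap. CH minus PR was 4.51 ± 0.23 (SE, adjusted p = 1.32e-07), RPE minus PR was 3.85 ± 0.23 (SE, adjusted p = 5.03e-07) and RPE minus CH was -0.67 (adjusted p = 0.0684). The dimmer probe of Plxnd1 gave 2.58 ± 0.16 (SE, adjusted p = 4.15e-07), 2.37 ± 0.16 (SE, adjusted p = 9.66e-07) and -0.21 ± 0.16 (SE, adjusted p = 0.391) in the same order. The endothelial markers, for comparison, had the same order of PR below the other tissues. So did the markers of RPE, Muller glia, pericytes and smooth muscle, fibroblasts, melanocytes, Schwann cells and macrophages. CH and RPE overlapped for the endothelial markers, and for Plxnd1 at the dimmer probe but not at the brighter. The part of any of these cells in the Plxnd1 differences was not tested.

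Plxnb2, a receptor of Sema4c and Sema4g (NM_138749, mm9 chr15:88985981-88986040), had ratios of 1.31, 1.24 and 1.32 in the RPE, 0.47, 0.33 and 1.28 in the CH and -2.47, -2.42 and -2.60 in the PR. CH replicate 3 was at the level of the RPE arrays. RPE minus PR was 3.78 ± 0.21 (SE, adjusted p = 3.01e-07), CH minus PR was 3.19 ± 0.21 (SE, adjusted p = 7.48e-07) and RPE minus CH was 0.60 (adjusted p = 0.0723). Plxnb1, the receptor of Sema4d, was low in the CH, at -0.46 to -0.19 beside 0.13 to 0.30 on the RPE and PR arrays, and its RPE minus CH difference of 0.53 (adjusted p = 0.00461) was below the FC threshold.

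Plxnb3, a receptor of Sema5a (NM_019587, mm9 chrX:71017572-71017631), was highest in the CH. Its ratios were 1.65, 1.86 and 1.65 in the CH, 0.29, 0.24 and 0.46 in the RPE and -0.10, -0.25 and -0.19 in the PR, where it was well above background on 1 of 3 arrays. The tissues did not overlap. RPE minus CH was -1.39 ± 0.10 (SE, adjusted p = 8.11e-05) and CH minus PR was 1.90 ± 0.10 (SE, adjusted p = 1.86e-07), and RPE minus PR was 0.51 (adjusted p = 0.00197). RPE minus CH was close to the threshold, and without CH replicate 2 it was -1.32 and no longer called. In the Cy5 channel alone it was -1.25 (adjusted p = 0.0178).

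Plxnc1, the receptor of Sema7a (NM_018797, mm9 chr10:94253879-94253938), had ratios of 0.97, 1.06 and 0.60 in the CH, -0.17, -0.48 and -0.65 in the RPE and -2.61, -2.50 and -2.52 in the PR, without overlap. The log2 difference of CH minus PR was 3.42 ± 0.15 (SE, adjusted p = 5e-08), RPE minus PR was 2.11 ± 0.15 (SE, adjusted p = 1.69e-06) and RPE minus CH was -1.31 ± 0.15 (SE, adjusted p = 0.000463), just short of the FC threshold. Without CH replicate 3 the latter was -1.45 and without RPE replicate 1 it was -1.44, and it was called in each case. A dimmer probe, not well above background on any PR array, gave bounds of at least 1.90-fold for CH over PR and at least 1.57-fold for RPE over PR. Its fitted differences were 1.12 for CH minus PR (adjusted p = 0.00205), 0.79 for RPE minus PR (adjusted p = 0.0158) and -0.33 for RPE minus CH (adjusted p = 0.363).

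Of the class A plexins, the partners of the neuropilins, Plxna4 alone was called. Plxna4 (NM_175750, mm9 chr6:32094602-32094661) had ratios of 1.47, 1.28 and 0.75 in the CH, -0.07, 0.38 and 0.33 in the RPE and -1.53, -0.93 and -1.59 in the PR, without overlap. CH minus PR was 2.52 ± 0.23 (SE, adjusted p = 7.59e-06), RPE minus PR was 1.56 ± 0.23 (SE, adjusted p = 0.000266) and RPE minus CH was -0.95 (adjusted p = 0.0152). With the slide as a block, RPE minus PR was 1.29 (adjusted p = 0.0103) and was not called, and it was below the FC threshold at 1.24 with the arrays scaled. A second probe was well above background on 0 CH arrays and on 1 array each of RPE and PR, and gave 0.04 for RPE minus PR (adjusted p = 0.828). Plxna3 descended from 0.30 to 0.53 in the CH to between -0.85 and -0.44 in the PR, and CH minus PR was 1.01 (adjusted p = 0.000155), below the FC threshold. Plxna2 was higher in the PR, at 0.46, 0.05 and 0.34 beside -0.41 to -0.15 elsewhere, with RPE minus PR at -0.59 (adjusted p = 0.00278). Plxna1 overlapped between all tissues and lay between 0.33 and 1.27.

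**Figure D4:**
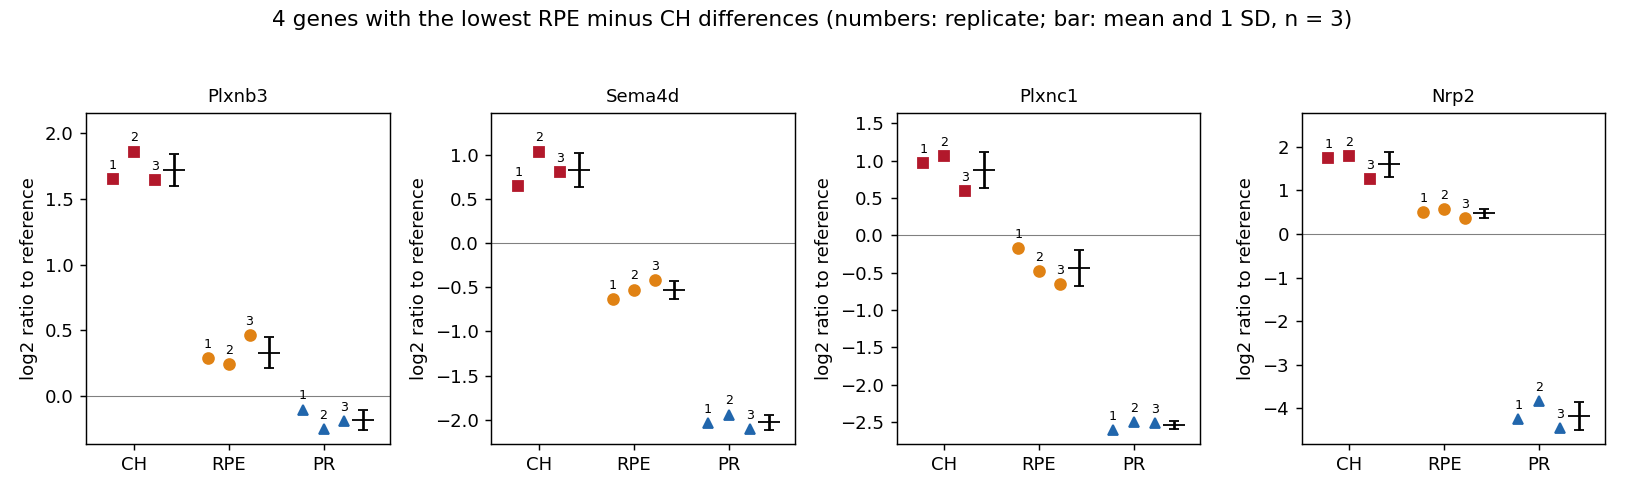
Log2 ratios on each array of Plxnb3, Sema4d, Plxnc1 and Nrp2, the 4 genes with the lowest RPE minus CH differences at the brightest probe, with replicate numbers beside the points and the mean and SD (n = 3) of each tissue. All CH arrays lie above all RPE arrays, and all RPE arrays above all PR arrays, for these 4 genes. Because the genes were picked for a low RPE minus CH difference, the order of CH over RPE is no separate result.

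Between RPE and CH the differences were small beside those with the PR. They ran from -1.39 to 1.84 over the 31 genes, 20 below and 11 above 0. The CH arrays also carried more of the fibroblast markers, of which all 6 were called for CH over RPE, and of the 6 Schwann cell and 6 melanocyte markers, of which 3 and 2 were called, and of the 6 pericyte and smooth muscle and 5 macrophage markers 2 each were called, while 0 of 7 endothelial markers were. The part of these cells in the higher CH values of Plxnb3 and Sema4d was not tested. Within the slide of replicates 1 and 3, RPE minus CH was -1.27 for Plxnb3 and -1.25 for Sema4d, and within the slide of replicate 2, with 1 array per tissue, it was -1.62 and -1.56. On that slide, the only one with RPE, CH and PR, all 16 genes called for CH over PR at the brightest probe were past an FC of 2.5 in the same direction. Of the 12 called for RPE over PR, all had the same direction and 11 were past an FC of 2.5. The arrays of this slide were part of the fits that made these calls, so the agreement is no separate test of them.

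The 15 genes called in no comparison were Sema3a, Sema3e, Sema3f, Sema4b, Sema4c, Sema4f, Sema5b, Sema6b, Sema6c, Sema6d, Sema7a, Plxna1, Plxna2, Plxna3 and Plxnb1. Without the FC threshold, 18 of the 31 genes were past the adjusted p in RPE over PR and 5 in PR over RPE, where 21.7% and 20.5% of all genes were. These 5 were Sema3f, Sema4c, Sema4f, Sema6c and Plxna2.

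Genes that act around the family were listed by function, with earlier results of these data known. All 56 were on the arrays. For RPE over PR 24 of the 56 were called and for PR over RPE 3, beside 11.3% and 5.66% of all genes. For CH over PR 29 were called and for PR over CH 3, beside 13.2% and 6.84% of all genes. Between RPE and CH 0 were called for the RPE and 7 for the CH, beside 0.217% and 1.81% of all genes. The largest differences over the PR were those of Flt1, a receptor of vascular endothelial growth factor, at 4.46 ± 0.24 (SE, adjusted p = 2.57e-07) in the RPE and 4.60 in the CH (adjusted p = 1.55e-07), of the ephrin Efna1, at 3.99 in the RPE (adjusted p = 3.71e-08), and of Ntn1, a netrin, at 5.61 in the CH (adjusted p = 5.95e-09). A second Ntn1 probe did not run with the first: CH minus PR was 0.84 ± 0.20 (SE, adjusted p = 0.0052) and RPE minus CH -0.63 ± 0.20 (SE, adjusted p = 0.0516), and neither was called. Higher in the PR were Unc5a, a netrin receptor, by a difference of -1.72 for RPE minus PR (adjusted p = 2.43e-07) and -1.84 for CH minus PR (adjusted p = 1.14e-07), Dpysl3, a collapsin response mediator, at -1.69 for RPE minus PR (adjusted p = 1.31e-05), and Epha5, an ephrin receptor, at -1.55 for CH minus PR (adjusted p = 8.2e-05). Second probes of Dpysl3, at -1.03 (adjusted p = 0.000777), and of Epha5, at -0.45 (adjusted p = 0.0359), had the same sign in these comparisons and were not called. Between RPE and CH, Ntn1 was at -1.99 at the first probe (adjusted p = 0.000129) and Trem2, an immune receptor that is a partner of Plxna1, at -1.97 (adjusted p = 0.000102).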

How the data were processed

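The authors extracted 9 dual-colour Agilent arrays with Agilent Feature Extraction 9.5.3.1 and processed them, per the labels, with R 2.14.0 and limma. The deposited mean signals and median local backgrounds are intensity values as scanned, and the log ratio that was deposited with them is on a log10 scale, Cy5 over Cy3. In the series table the authors gave log2 values, whose correlation with the log2 Cy5 signal was 0.985 to 0.999 per array, with column medians between 9.378 and 9.549. Its normalization and centring are not given in the sources used here, and like the log10 ratio it was used only as an alternative.

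The normexp method (offset 50) corrected the background, and loess normalized the ratio within each array with control and outlier-marked spots at weight 0. Marked spots, 228 to 586 per array, were left out and spots of a probe were averaged. Means per tissue were fitted to all 9 arrays with limma 3.58.1 in R 4.3.3 (lmFit and eBayes) with Benjamini-Hochberg adjustment over 39429 probes. This test, its thresholds (FC above 2.5, adjusted p below 0.01) and the common reference follow the study's methods. The labels do not tie samples to animals, so p-values measure the spread between these samples. The brightest probe in Cy5 is the reported one. A probe that no array of a tissue measured well above background was given a bound after Aquantile normalization. On simulated arrays with 200 of 39429 probes changed in RPE minus CH, 184 were called in the right direction and 0 unchanged probes were called there. All planted differences were larger than the FC threshold, and the noise was normal and drawn independently for each array, with no slide or dye effect. The simulation checked that the fit and the call rule ran as intended, and it cannot speak for measured differences near the threshold.

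The family, the partner list, the marker lists and the motifs were chosen with earlier results of these data known. All 31 genes are named, with values, SE and adjusted p for the main differences of called genes and of genes whose probes disagree (Sema3c without p), and for the partners the 2 largest called differences in each direction of each comparison. Marker lists were those for RPE, rods, cones, Muller glia, inner retina, endothelium, pericytes and smooth muscle, fibroblasts, melanocytes, Schwann cells, macrophages, T and B cells, red blood cells and lens. Names and promoter windows came from RefSeq (GRCm38.p6), and probe positions are those of the files on mm9. Alternatives covered background, normalization, the arrays fitted, replicate and slide blocks, marked and dim spots, probes per gene, the variance model, the thresholds and each array left out.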

Additional observations from a re-analysis of the deposited data

How the results depend on the processing

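The differences called at the brightest probes, and that of the dimmer Sema3c probe between RPE and CH, kept their direction under every alternative run. These were 684 values of 31 differences, and 665 stayed on the same side of both thresholds. Between RPE and CH, 3 genes were called in the main fit. With median centring in place of loess 5 were called, 1 higher in the RPE and 4 in the CH, where Plxnc1 and Nrp2 joined. Of all genes 0.0377% and 3.42% were then called, beside 0.217% and 1.81% in the main fit. An FC above 2 gave 5 (1 and 4, beside 1.14% and 3.8% of all genes). No FC threshold gave 10 (2 and 8, beside 5.78% and 7.95%). The Cy5 channel alone and the series table each gave 2, 1 in each direction. Their shares of all genes were 0.0911% and 1.42% for the Cy5 channel and 0.0754% and 1.14% for the series table. Without an FC threshold 23 were called between RPE and PR (18 higher in the RPE and 5 in the PR, beside 21.7% and 20.5% of all genes) and 25 between CH and PR (20 higher in the CH and 5 in the PR, beside 23.4% and 23.1%). With 1 array left out, the count was 1 to 4 between RPE and CH, 12 to 13 between RPE and PR and 15 to 17 between CH and PR. The count of 1 came without CH replicate 2, where 0.0597% of all genes were higher in the RPE and 1.42% in the CH. With the replicate number as a block the counts were 3, 12 and 16, and the brighter Sema3c probe, at 1.84 for RPE minus CH, then passed both thresholds. This paired fit is given because the labels number the samples. Deviations of same-numbered arrays from their tissue means correlated between -0.076 and 0.289, and not every array correlated best with its own number. The arrays of replicate 2 also share a slide, and each deviation is from a mean of 3 arrays, so these correlations cannot settle pairing. The samples were not treated as pairs in the main fit because the labels do not tie them to animals. Scaling the arrays to the same spread gave 4, 9 and 14. The slide that holds the PR with another tissue has 1 array of each, so no test within it was possible, and the count was not run there. Of the other differences of the family's probes, 103 of 2048 values changed sign, all of them from a difference of at most 0.84 in size. This set includes the remaining calls at second probes, and in it a call was lost at 4 values and gained at 20. The cause of these changes was not tested. Signal over background limits Sema3d, the dimmer Plxnc1 probe and the second probes of Sema3a, Sema4f and Plxna4. Among the RPE arrays, each of these probes had its highest scanned Cy5 signal on replicate 2, the array with 91.7% of probes well above background.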

Other observations

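Marker lists outside the comparisons above gave these values. The mean log2 ratio of 5 macrophage markers was 0.05 to 0.44 in the CH, -0.55 to -0.39 in the RPE and -2.98 to -2.75 in the PR, and that of 6 pericyte and smooth muscle markers was 1.00 to 1.71, 0.21 to 0.49 and -2.50 to -2.46. The 8 inner retina markers were at -2.20 to -1.99 in the CH, -2.09 to -1.54 in the RPE and -1.62 to -0.97 in the PR, the 5 Muller glia markers, with Apoe saturated on all CH and RPE arrays, at -0.82 to -0.11, -0.19 to 0.42 and -2.41 to -1.50, and the 5 cone markers at -1.47 to -0.81, -0.95 to -0.53 and 2.74 to 2.96. The 6 melanocyte markers, of which Dct was saturated on all CH and RPE arrays and Tyrp1 on all CH arrays, were at 0.65 to 0.78, -0.29 to 0.08 and -3.49 to -3.18, and the 6 Schwann cell markers at 1.10 to 1.27, 0.08 to 0.19 and -2.01 to -1.78. The 4 T and B cell markers lay between -0.28 and 0.40 and the 3 red blood cell markers between -2.02 and -0.57 on all arrays. Groups of 3 arrays are too small for a test of single outlying arrays, so none was made.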
